A study of Bos taurus with 6 samples.

Results

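The 32 genes described here encode the machinery of the G1/S transition and of DNA replication: the MCM2-7 helicase ring, the proteins that load and activate it, the PCNA clamp with its loader and polymerases, the enzymes that supply deoxynucleotides, and the cyclin E and E2F genes that control entry into S phase. They were chosen by symbol, taking the row with the most counts for each symbol, and all 32 were found on 1 row each among the 28200 rows of the count table. All 32 passed the filter on low counts, which left 13390 genes to test. RNA was taken from bovine mammary epithelial cells in primary culture (Holstein breed), in 3 libraries of wild-type cells and 3 of cells whose KLF6 gene had been knocked out with CRISPR/Cas9. KLF6 encodes a zinc-finger transcription factor. The labels give no age or treatment besides the edit, and they do not say whether the edited cells were a pool or a clone, or whether replicates are separate cultures. All p-values are therefore relative to library-to-library spread that may be technical only. The question is which transcripts differ between the genotypes.

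Before S phase, the origin recognition complex, CDC6 and CDT1 load the MCM2-7 ring onto DNA in an inactive form, a step called licensing. At the start of S phase, CDC45 and the GINS complex join the ring and turn it into the active helicase, and PCNA, loaded by the RFC complex, holds the polymerases on the template. Many of these genes are transcribed by E2F factors once cyclin-dependent kinases have inactivated the RB protein family. In a cell population their RNA is therefore widely used as a sign of proliferation.

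Total counts ranged from 17512892 to 18724879 per library. KLF6 itself (chromosome 13, 44597240 to 44605699) stood at 503, 496 and 558 CPM (counts per 1000000 of the scaled library) in the wild-type libraries and 224, 230.1 and 217 CPM in the knockout libraries, a log2 fold change of -1.21 ± 0.05 (SE) with edgeR adjusted p = 2.25e-13. The genotypes did not overlap for KLF6, and reads of the gene remained in the knockout. Wild-type replicate 3 stood apart: its variance against the other wild-type libraries was 9.57 and 9.75 times that of pure counting, against 2.32 to 3.06 for every other pair within a genotype. In that library 22 of the 32 genes lay below their own group mean, against 12 to 20 in the other libraries. Of the markers of mammary epithelium, all 8 were detected. Their summed level was 15902 to 17191 CPM in wild type and 6477 to 6678 CPM in the knockout, carried by KRT8, KRT18 and KRT5. KRT19 and TP63 also fell, KRT14 rose from 304 to 515 CPM, while CDH1 and EPCAM were not called. The 8 fibroblast markers summed to 1039 to 1236 CPM in wild type and 240 to 253 CPM in the knockout, mostly from DCN, while COL1A2 had 0 counts in wild type and 5.18 CPM in the knockout. Of 5 leukocyte markers, the defining marker PTPRC and LYZ had 0 counts in all libraries, and the list summed to 3.23 to 4.64 CPM. The 4 endothelial markers, with KDR at 0 in all libraries, summed to 3.64 to 4.70 CPM in wild type and 30.6 to 32.5 CPM in the knockout. That rise was PECAM1 alone (0.219 to 31.3 CPM), while VWF fell from 3.57 to 0.242 CPM and CDH5 had 18 counts in wild type and 1 in the knockout. The 3 adipocyte markers, with ADIPOQ at 0, summed to 1.75 to 4.24 CPM. The part of these marker differences in the results below was not tested.

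The G1/S and replication genes were higher in the knockout nearly throughout. Of the 32, 29 rose, 0 fell and 3 (MCM4, RFC3 and E2F8) did not pass the edgeR quasi-likelihood test at an adjusted p of 0.05. The background was high, since 74.6% of all tested genes were called, 37.1% as higher and 37.6% as lower in the knockout. The same shares apply beside the count of each role group of the 32 genes further down. At least 2-fold rises were found for 9 of the 32 (10.8% of all tested genes). Of the 29 rises, 8 were smaller than 1.5-fold, beside 2278 of the 4963 rises among all tested genes. In 30 of the 32 genes the knockout libraries all lay above the wild-type libraries (37.9% of all tested genes), and in none did they all lie below (38.3% of all tested genes). POLA1 and E2F8 were the 2 with overlap. The median log2 fold change of the 32 genes was 0.80, beside -0.01 over all tested genes. Together they held 0.204%, 0.204% and 0.200% of the counts in wild-type libraries and 0.329%, 0.330% and 0.333% in knockout libraries. In bulk RNA, a larger share of cells in S phase and more RNA of these genes per cell cannot be told apart. Without wild-type replicate 3, 29 of the 32 genes still rose, with a median of 0.74.

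**Figure D1:**
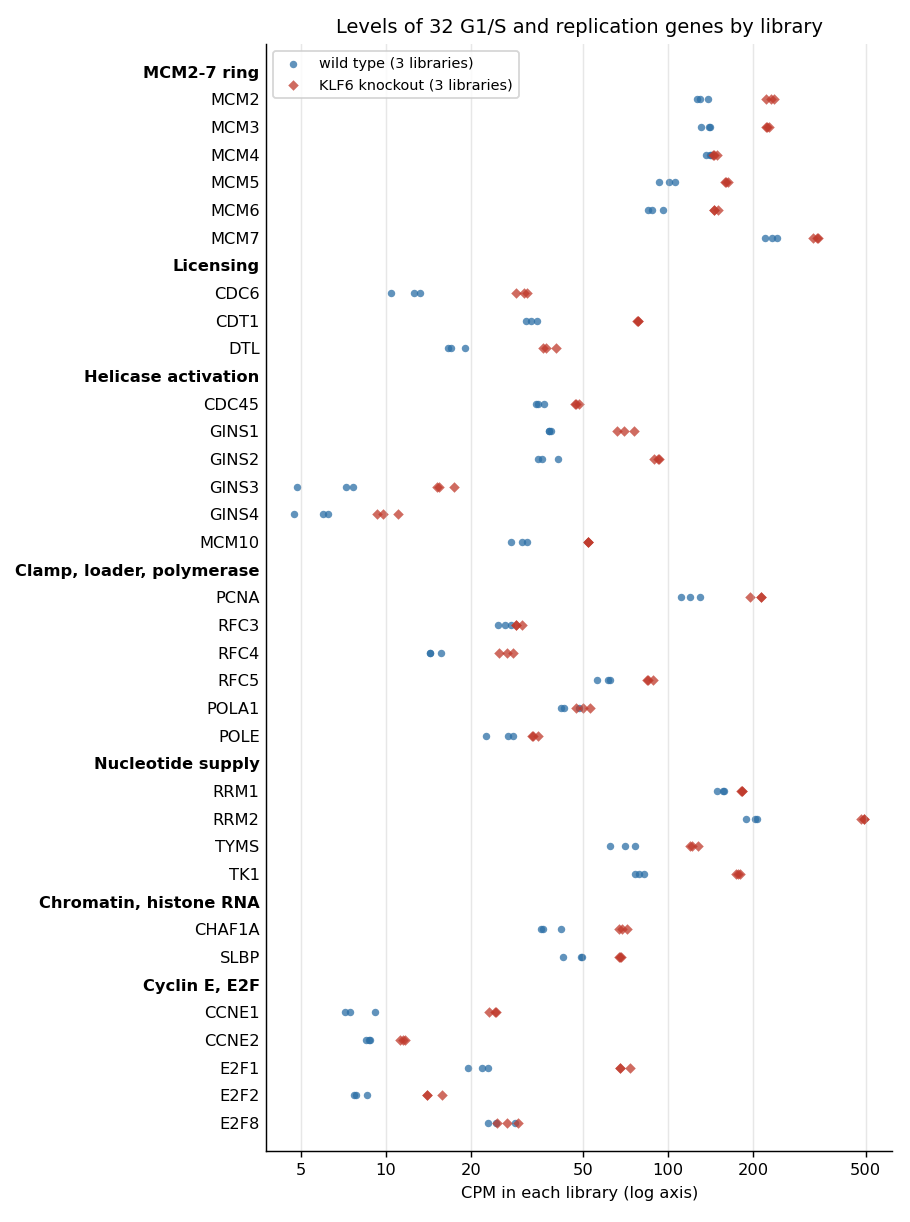
Level of each of the 32 genes in each library, in CPM on a log axis, ordered by role. Circles are the 3 wild-type and diamonds the 3 KLF6 knockout libraries; the genotypes are apart for 30 genes and overlap for POLA1 and E2F8.

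The plot of levels by library shows that, for most genes, the libraries of a genotype differ little beside the distance between genotypes. Exceptions include POLA1 and E2F8, which overlap, and MCM4 and RFC3, where the distance is small. The plot of changes by role shows the largest rises for E2F1, CCNE1, CDC6, GINS2 and RRM2, and several genes close to the median of all tested genes.

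**Figure D2:**
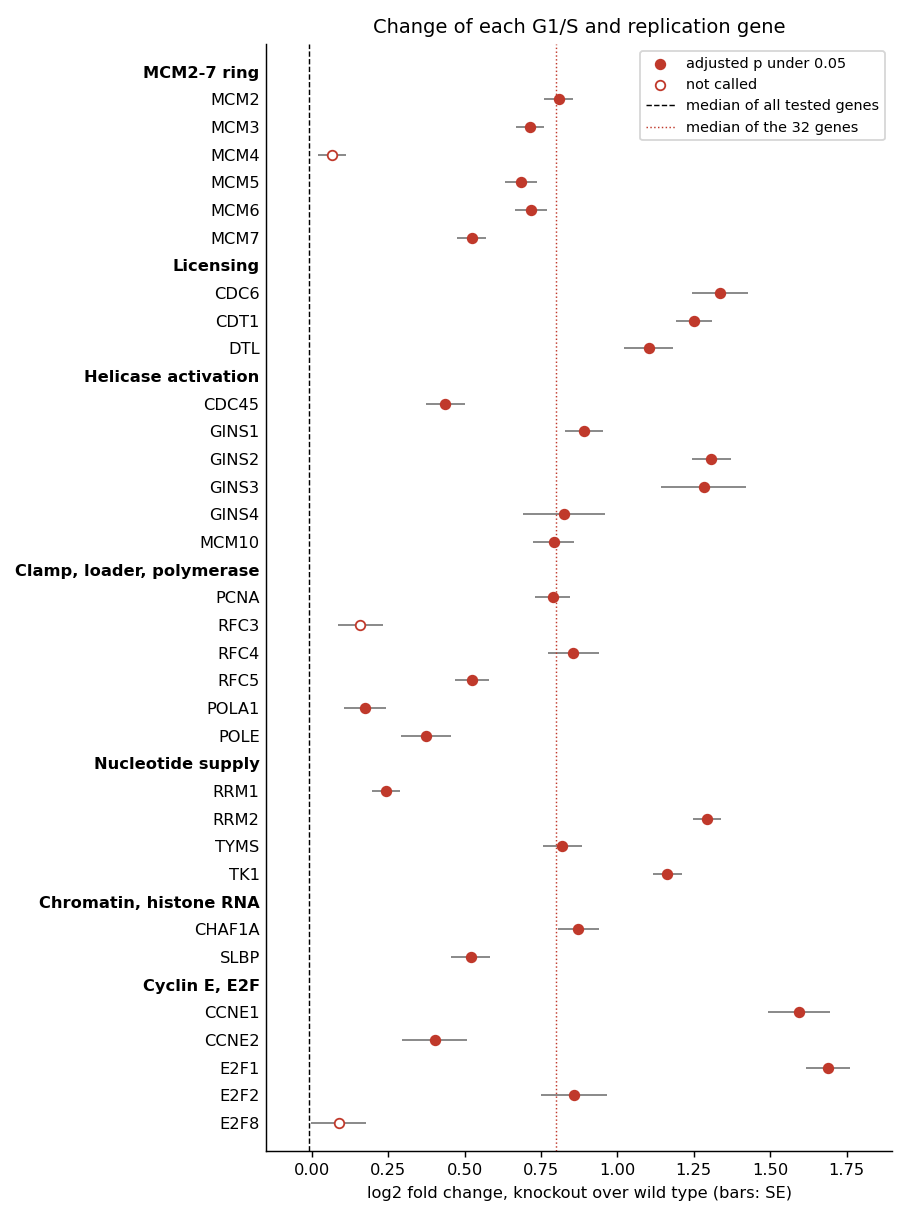
The log2 fold change of each gene, knockout over wild type, with its SE as a bar. Filled points passed the edgeR test and open points (MCM4, RFC3 and E2F8) did not; the dashed line is the median of all tested genes (-0.01) and the dotted line that of the 32 genes (0.80).

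Of the 6 genes of the helicase ring, the motor that unwinds the template, 5 rose and MCM4 did not pass the test. MCM2 stood at 129.5, 126 and 138 CPM in wild type and 237, 222 and 231 CPM in the knockout, a log2 fold change of 0.81 ± 0.05 (edgeR adjusted p = 4.52e-11). MCM3, MCM5 and MCM6 rose by 0.71, 0.68 and 0.72 on the log2 scale, and MCM7 by 0.52. The 5 genes that rose thus did so by 1.44-fold to 1.75-fold, and the genotypes did not overlap for any of them. In the deposited coordinates, MCM7 shares bases with AP4M1 on the other strand and MIR25 on the same strand. Its reads therefore cannot be assigned with certainty. MCM4 (chromosome 14, 19551601 to 19563221) stood at 142, 141 and 136 CPM in wild type and 149, 144 and 145 CPM in the knockout. Its knockout libraries all lay above its wild-type libraries, but the difference was small, with a log2 fold change of 0.07 ± 0.05 and edgeR adjusted p = 0.191 (0.120 to 0.741 over 13 alternative fits).

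The ring holds a single copy of each subunit, so their levels per length were set side by side in RPKM (CPM per 1000 bases of the deposited gene length). In wild type, MCM7 was highest at 70.2 ± 3.44 RPKM (SD, n = 3) and MCM6 lowest at 25.3 ± 1.61. Between them lay MCM3 at 41.3 ± 1.74, MCM4 at 38.1 ± 0.930, MCM5 at 36.3 ± 2.47 and MCM2 at 36.2 ± 1.72 RPKM. MCM3 lay above MCM4 in every library, while MCM4, MCM5 and MCM2 overlapped. In the knockout, MCM4 was the lowest at 39.9 ± 0.730, below MCM6 at 41.6 ± 0.655 RPKM, while MCM7 reached 100.9 ± 2.10. Against the geometric mean of its 5 partners, MCM4 went from a ratio of 0.964 in wild type to 0.626 in the knockout, a log2 difference of -0.62, and the genotypes did not overlap. This was the only subunit of the ring whose ratio to its partners was lower in every knockout library. Ratios of this kind were formed for 18 genes in 6 complexes or families. With 3 against 3 libraries the two-sided exact permutation test cannot go below p = 0.1, which MCM4 reached (0.129 adjusted over the 18), so the ratios stand as descriptions.

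**Figure D3:**
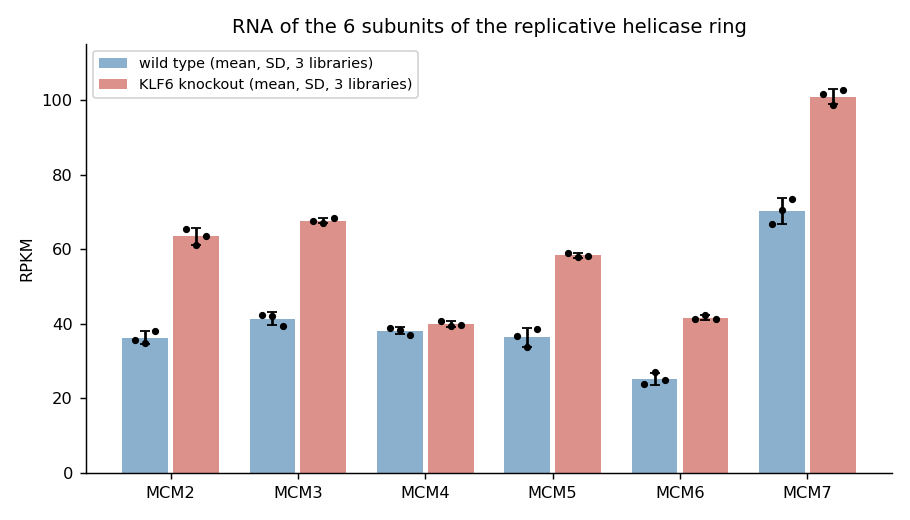
RNA level per length, in RPKM, of the 6 subunits of the helicase ring. Bars are means of 3 libraries with SD and dots are libraries; MCM4 is at 38.1 RPKM in wild type and 39.9 RPKM in the knockout, while the other 5 subunits are 1.44-fold to 1.75-fold higher in the knockout.

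The licensing factors CDC6 and CDT1, which place the ring on origins, had larger rises than any subunit of the ring, a difference that was not tested. CDT1 stood at 34.4, 32.6 and 31.3 CPM in wild type and 77.5, 78.0 and 78.5 CPM in the knockout, a 2.38-fold rise (log2 1.25 ± 0.06, edgeR adjusted p = 1.42e-12). CDC6 stood at 13.3, 12.6 and 10.4 CPM in wild type and 30.9, 29.0 and 31.6 CPM in the knockout, a rise of 2.52-fold. DTL, the ubiquitin ligase receptor that removes CDT1 during S phase, rose 2.15-fold, from 17.6 ± 1.35 to 37.7 ± 2.18 CPM (SD, n = 3). The genotypes lay far apart for all 3 genes. CDC6 overlaps WIPF2 on the same strand in the file's coordinates, and reads of overlapping genes cannot be assigned with certainty.

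All 6 genes that activate the helicase rose, beside 37.1% of all tested genes. GINS2 stood at 40.6, 35.6 and 34.6 CPM in wild type and 93.0, 91.8 and 89.4 CPM in the knockout, a log2 fold change of 1.31 ± 0.06 (edgeR adjusted p = 1.89e-12). GINS3 rose by 1.28 ± 0.14, GINS1 by 0.89 ± 0.06 and GINS4 by 0.83 ± 0.13 on the log2 scale. The 4 GINS proteins form a complex with a single copy of each. Their RNA per length differed 15.3-fold in wild type and 21.3-fold in the knockout. In wild type it ran from 2.02 ± 0.287 RPKM for GINS4 to 30.9 ± 2.68 RPKM for GINS2. Before division by length, these 2 genes stood at 5.67 and 36.9 CPM. The deposited lengths are 2808 bases for GINS4 and 1195 for GINS2, and whether the expressed transcripts have these lengths was not tested. MCM10, which helps start unwinding, stood at 30.5, 31.7 and 27.9 CPM in wild type and 51.9, 51.9 and 52.0 CPM in the knockout (log2 0.79 ± 0.07). CDC45, the partner of GINS in the active helicase, had the smallest rise of this group, at 0.44 ± 0.06.

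Among the clamp, clamp loader and polymerase genes, 5 of 6 rose, in general by less. PCNA, the sliding clamp, stood at 129.5, 120.0 and 111 CPM in wild type and 196, 214 and 213 CPM in the knockout, a 1.73-fold rise (log2 0.79 ± 0.06, edgeR adjusted p = 4.92e-10). Of the small clamp loader subunits, RFC4 rose by 0.86 ± 0.08 and RFC5 by 0.52 ± 0.06 on the log2 scale. RFC5 overlaps WSB2 and KSR2 on the other strand. RFC3 (chromosome 12, 27378900 to 27396278) stood at 27.8, 26.4 and 25.0 CPM in wild type and 29.0, 28.9 and 30.4 CPM in the knockout. The RFC3 libraries did not overlap, but the log2 fold change of 0.16 ± 0.07 missed the threshold (edgeR adjusted p = 0.0597). It passed with DESeq2's size factors (adjusted p = 0.0426) and without wild-type replicate 1 (adjusted p = 0.0384). Per length, RFC3 was above RFC4 in both genotypes, at 19.4 ± 1.03 against 9.42 ± 0.487 RPKM in wild type and 21.7 ± 0.609 against 17.03 ± 0.950 RPKM in the knockout.

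POLE and POLA1, the catalytic subunit genes of polymerases epsilon and alpha, changed less than PCNA, a difference that was not tested. POLE, of the leading-strand polymerase, stood at 22.6, 27.1 and 28.2 CPM in wild type and 34.6, 33.0 and 33.3 CPM in the knockout (log2 0.37 ± 0.08, edgeR adjusted p = 5.36e-04). POLA1, of the polymerase that extends the primers, stood at 41.821, 48.439 and 42.673 CPM in wild type and 47.234, 52.684 and 49.998 CPM in the knockout. The POLA1 groups overlapped, and its log2 fold change of 0.17 ± 0.07 was called at an edgeR adjusted p = 0.0319. That call was lost without knockout replicate 2 (adjusted p = 0.145), knockout replicate 3 (0.0670) or wild-type replicate 1 (0.124), with scaling by library size only (0.118) and by DESeq2 (0.0504).

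All 4 genes of nucleotide supply rose, by very different amounts. Ribonucleotide reductase, which makes deoxynucleotides, is built from the large subunit RRM1 and the small subunit RRM2, and RRM2 is the one whose protein is known to be destroyed outside S phase. RRM2 stood at 207, 203 and 189 CPM in wild type and 482, 494 and 492 CPM in the knockout, a 2.45-fold rise (log2 1.29 ± 0.05, edgeR adjusted p = 2.34e-14). RRM1 stood at 158, 156 and 149 CPM in wild type and 182, 183 and 183 CPM in the knockout, a rise of 1.18-fold (edgeR adjusted p = 8.48e-05). Per length, the ratio of RRM2 to RRM1 RNA went from 1.37 in wild type to 2.84 in the knockout, without overlap between genotypes. TK1, the thymidine kinase of the salvage route, rose 2.24-fold, from 79.1 ± 2.75 to 177 ± 3.17 CPM. TYMS, which makes thymidylate from deoxyuridylate, rose 1.76-fold, from 69.6 ± 7.25 to 123 ± 4.16 CPM (SD, n = 3).

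Both genes of chromatin and histone supply rose. CHAF1A, the large subunit of the assembly factor that places new histones behind the fork, stood at 35.3, 36.1 and 41.9 CPM in wild type and 71.4, 67.0 and 68.9 CPM in the knockout (log2 0.87 ± 0.07, edgeR adjusted p = 1.62e-09). SLBP, which binds the stem-loop at the end of histone messages, rose 1.43-fold, from 47.1 ± 4.04 to 67.5 ± 0.433 CPM.

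The regulators showed the widest range, from the largest change of the 32 genes to one of the smallest. E2F1 (chromosome 13, 63129139 to 63138330), an activator of S phase genes, stood at 21.8, 19.6 and 23.1 CPM in wild type and 73.0, 67.7 and 67.4 CPM in the knockout, a 3.22-fold rise (log2 1.69 ± 0.07, edgeR adjusted p = 3.02e-13). E2F2, another activator, stood at 7.85, 8.57 and 7.70 CPM in wild type and 15.8, 14.0 and 14.0 CPM in the knockout (log2 0.86 ± 0.11). E2F8, an atypical E2F that represses S phase genes, stood at 24.6, 28.8 and 23.1 CPM in wild type and 27.0, 29.4 and 24.9 CPM in the knockout. The E2F8 groups overlapped and the log2 fold change of 0.09 ± 0.09 did not pass the test (edgeR adjusted p = 0.392, and 0.0750 to 0.832 over 13 alternative fits). Per length, the RNA of E2F1 was 2.38 times the geometric mean of E2F2 and E2F8 in wild type and 5.53 times in the knockout.

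The cyclin E genes, whose products activate CDK2 at the end of G1, also moved unequally. CCNE1 (chromosome 18, 40424330 to 40434833) stood at 7.17, 7.50 and 9.18 CPM in wild type and 24.4, 23.2 and 24.6 CPM in the knockout, a 3.02-fold rise (log2 1.60 ± 0.10, edgeR adjusted p = 1.08e-10). CCNE2 (chromosome 14, 69448183 to 69460811) stood at 8.52, 8.73 and 8.80 CPM in wild type and 11.2, 11.7 and 11.5 CPM in the knockout, a 1.32-fold rise (log2 0.40 ± 0.11, edgeR adjusted p = 0.00233). Per length, CCNE1 stood at 1.30 times CCNE2 in wild type and at 2.99 times in the knockout, without overlap between genotypes. The two-sided exact permutation p was 0.1, the smallest this design allows, for this ratio as for RRM2 to RRM1 and E2F1 to its relatives (0.129 each over the 18 ratios).

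The 5 genes with the smallest changes were MCM4, E2F8, RFC3, POLA1 and RRM1. Of these 5, 4 lay on chromosomes whose tested genes had a median log2 fold change below -0.1. The 10 lowest of the 30 chromosomes had such medians. They also carry CCNE2, CDC6, TK1, SLBP and RFC4, which were called as higher. The count of 4 among 5 was not tested. The 5 genes were picked by their own changes, and the cut of -0.1 was not set in advance. From the lowest median up, those 10 chromosomes held 301, 180, 230, 739, 606, 391, 813, 391, 349 and 537 of the 13390 tested genes. Chromosome 14, which carries MCM4 and CCNE2, had the lowest median of all 30 chromosomes, at -0.82 on the log2 scale over 301 tested genes. Chromosome 12, which carries RFC3, had a median of -0.43 over 230 genes, chromosome 29 with E2F8 -0.26 over 391, and chromosome 15 with RRM1 -0.19 over 391. POLA1 was the exception, on the X chromosome with a median of -0.01, and the next smallest change, POLE (0.37), lay on chromosome 17 with a median of 0.10. Large rises were found on chromosomes of either kind. CDC6 (1.34) and TK1 (1.16) lay on chromosome 19 with a median of -0.25, RRM2 (1.29) on chromosome 11 with -0.04 and E2F1 (1.69) on chromosome 13 with 0.08, while chromosome 18, which carries CDT1, GINS2, GINS3 and CCNE1, had a median of 0.32 over 771 genes. Across the 32 genes, the log2 fold change and the median of the gene's own chromosome had a Pearson r of 0.52 and a Spearman rho of 0.44. This is a description across genes, which are not independent, share the same 6 libraries and in part the same chromosomes.

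Set against its own chromosome, each of the 32 genes lay above the median. Among all tested genes on a chromosome with a median, 6656 of 13326 did. MCM4 was higher than 88.0% of the other 300 tested genes of chromosome 14, and CCNE2 higher than 91.0%. With the chromosome median taken off, MCM4 stood at 0.89, beside 0.44 to 0.74 for the other 5 subunits of the ring, so that MCM4 was then the highest of the 6. CCNE2 stood at 1.22 beside 1.28 for CCNE1, and RFC3 at 0.59 beside 0.96 for RFC4 and 0.42 for RFC5. RRM1 (0.43) stayed below RRM2 (1.33), and E2F8 (0.35) below E2F1 (1.61) and E2F2 (0.83). The median over the 32 genes was 0.73 on this scale. Against the tested genes within 5 Mb, a comparison added after the data were seen, each of the 32 again lay above the median, but E2F8 (0.02) and POLE (0.07) barely so, and MCM4 stood at 0.67 among values of 0.39 to 0.94 for its partners. These differences have no test, and the source of the chromosome medians was not tested.

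**Figure D4:**
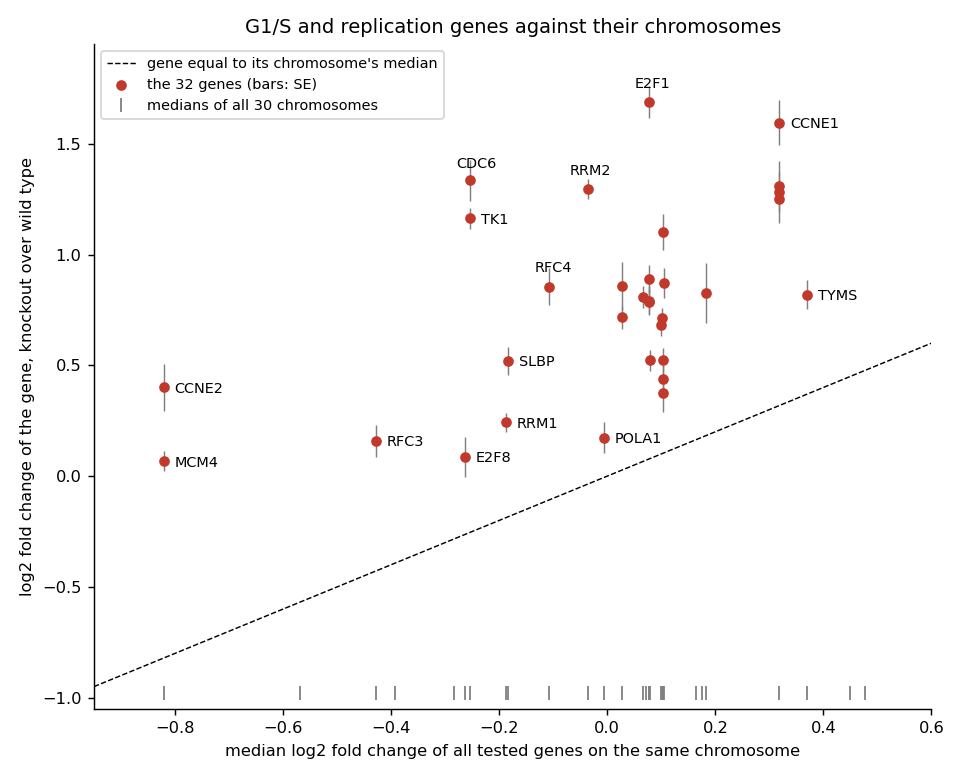
Log2 fold change of each of the 32 genes (vertical, with SE) against the median log2 fold change of all tested genes on its chromosome (horizontal). The dashed line marks equality, and ticks at the base show the medians of all 30 chromosomes; all points lie above the line, and MCM4 and CCNE2 stand at the far left, at -0.82.

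The rest of the pathway was read from 76 further genes of G1/S control and replication, of which 74 were in the table under these symbols and all 74 were tested. Of these, 52 rose, 9 fell and 13 did not pass the test, with a median log2 fold change of 0.46. Among all tested genes, 37.1% were called as higher and 37.6% as lower. These shares also apply beside the count of each group below. The count of pathway genes that rose was 49 without knockout replicate 2 and 53 without wild-type replicate 2. Of the 52, TFDP1 rose in 5 of 13 alternative fits, DNA2 in 10, TFDP2 in 11 and E2F6 in 12, the others in all 13. The count of pathway genes that fell was 5 without knockout replicate 3 and 5 by DESeq2. Of the 9, RFC1, RRM2B, CCND3 and CDKN1B fell under all 13 alternative fits. Minus the chromosome median, RFC1 (-0.28), RRM2B (-0.24), CCND3 (-0.69), CDKN1B (-0.92) and CDKN1A (-0.21) lay below their chromosomes. CDC7 (0.22), RPA1 (0.11), CCND1 (0.12) and E2F5 (0.12) lay above theirs.

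In origin recognition and licensing, 7 of 8 genes rose. GMNN, the inhibitor of CDT1, rose by 1.26 ± 0.06 on the log2 scale, and ORC5 by 1.11 ± 0.11. ORC1 (0.03 ± 0.08) did not pass. It lies on chromosome 3, where the median was -0.39. Of 11 genes of origin firing and fork stability, 6 rose, among them TICRR (0.72 ± 0.10) and DONSON (0.71 ± 0.06, which overlaps CRYZL1). CDC7, the kinase that fires origins, fell by 0.17 ± 0.08, a call made in only 6 of 13 alternative fits. MTBP (0.03), RECQL4 (-0.02), TIMELESS (-0.05) and WDHD1 (0.15) did not pass. The first 2 of these lie on chromosome 14 (median -0.82), WDHD1 on chromosome 10 (-0.28) and TIMELESS on chromosome 5 (0.10). The RECQL4 row is annotated as a pseudogene, and MTBP overlaps MRPL13 on the other strand.

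Of 11 further polymerase and clamp loader genes, 6 rose, led by the polymerase delta genes POLD3 (1.20 ± 0.09) and POLD1 (1.07 ± 0.05). RFC1, the large subunit of the clamp loader, fell by 0.46 ± 0.07 on the log2 scale, against the direction of RFC4 and RFC5. PRIM1 (0.24), PRIM2 (-0.01), POLD2 (0.14) and POLE4 (0.11) did not pass. Their chromosomes (5, 23, 4 and 11) had medians of 0.10, 0.10, 0.07 and -0.04. PRIM1 had only 75 counts in wild type and 87 in the knockout, and it overlaps NACA on the same strand. In single-strand binding and Okazaki fragment maturation, 6 of 7 rose. RPA2 (1.18 ± 0.06) and RPA3 (1.17 ± 0.07) rose, while RPA1, the large subunit of the same single-strand binding complex, fell by 0.14 ± 0.05, called in 9 of 13 alternative fits. RPA1 is on chromosome 19 (median -0.25) and lay 0.11 above that median. All 4 chromatin assembly genes rose, ASF1B by 1.59 ± 0.06 and CHAF1B, the partner of CHAF1A, by 1.11 ± 0.09.

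Nucleotide supply had 4 that rose and 1 that fell among 6. DCTPP1, which removes faulty nucleotides, rose by 1.19 ± 0.06, and SAMHD1, which breaks deoxynucleotides down rather than supplying them, by 0.90 ± 0.08. RRM2B, the p53-induced relative of RRM2, fell from 5.19 ± 0.274 to 2.49 ± 0.267 CPM. DUT (-0.01 ± 0.04), on chromosome 10 with a median of -0.28, did not pass. RRM2B lies on chromosome 14, and its log2 fold change minus the chromosome median was -0.24.

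Of 8 cyclin, kinase and phosphatase genes, 6 rose and 2 fell. CCND2, a D-type cyclin, rose from 1.72 ± 0.286 to 8.33 ± 0.626 CPM (log2 2.27 ± 0.17), and CDC25A, the phosphatase that activates CDK2, from 16.8 ± 0.617 to 47.8 ± 1.88 CPM. CCND3 fell from 133 ± 7.81 to 88.5 ± 2.65 CPM, and CCND1 by 0.14 ± 0.05 with overlapping groups. The D-type cyclins thus moved in both directions, and CCND1 and CCND3 were far more abundant than CCND2 in both genotypes. Of 5 inhibitors of cyclin-dependent kinases, CDKN2D (0.74 ± 0.09) and CDKN2C (0.49 ± 0.09) rose. CDKN1B, which binds cyclin E with CDK2, fell from 75.6 ± 3.52 to 42.7 ± 2.43 CPM (log2 -0.82 ± 0.06). CDKN1A fell by 0.10 ± 0.04, called in only 4 of 13 alternative fits. CDKN1C (-0.72 ± 0.34), on chromosome 29 with a median of -0.26, did not pass.

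Among the RB family, the other E2F genes and their DP partners, 8 of 10 rose. E2F4 rose by 1.08 ± 0.06 and E2F7, the other atypical E2F beside E2F8, from 4.79 ± 0.397 to 8.66 ± 0.781 CPM (log2 0.85 ± 0.14). E2F5, on chromosome 14, fell by 0.70 ± 0.22, a call lost without knockout replicate 3. RB1 (0.16 ± 0.12), on chromosome 12 with a median of -0.43, did not pass. Of 4 ubiquitin ligase genes of G1/S, FBXO5 (1.01 ± 0.10), CKS1B (0.74 ± 0.06) and SKP2 (0.40 ± 0.09) rose. FBXW7 (0.14 ± 0.10), on chromosome 17 with a median of 0.10, did not pass.

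The genes of mitosis moved to a like extent. Of 26 genes of G2/M and mitosis, 25 were in the table under these symbols. All 25 rose, beside 37.1% of all tested genes. Their median was 0.77, with a range from 0.25 (BUB1B, a spindle checkpoint kinase) to 1.76 (UBE2C, which works with the anaphase-promoting complex). UBE2C overlaps DNTTIP1 on the same strand. The median of the mitosis genes stands beside 0.80 for the 32 replication genes, and the difference between the lists was not tested.

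**Figure D5:**
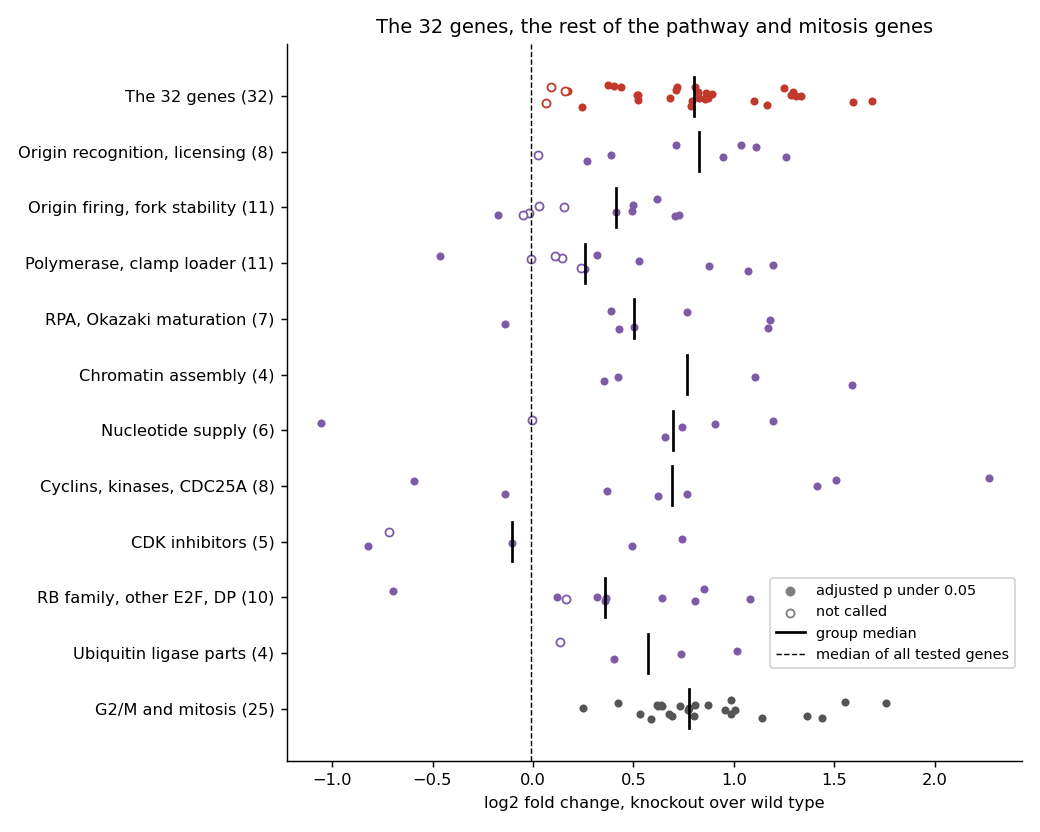
Log2 fold change, knockout over wild type, of the 32 genes, of 74 other genes of the pathway by role and of 25 mitosis genes, with the number of genes in brackets. Filled points passed the edgeR test, open points did not, and bars are group medians. The 5 inhibitors of cyclin-dependent kinases are the group whose median (-0.10, the value of CDKN1A) is below that of all tested genes (-0.01). Of these 5, 2 rose and 2 fell, beside 37.1% and 37.6% of all tested genes.

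In the authors' deposited table, which lists a subset of the genes, 28 of the 32 genes appear, with log2 fold changes from 0.26 for RRM1 to 1.70 for E2F1, all higher in the knockout. MCM4, RFC3, POLA1 and E2F8 are the 4 without an entry. For the 28, the authors' deposited table gives values 0.013 to 0.015 above those of the edgeR fit. They equal the log2 fold changes of the DESeq2 alternative, within 1e-05, for 28 of the 28.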

How the data were processed

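RNA libraries of 3 KLF6 knockout and 3 wild-type samples were grouped by their titles. The authors deposited raw counts per gene, whole numbers in 28200 rows. The submitters' processing notes name HISAT2 2.0.5 with featureCounts 1.5.0-p3. The sources used here do not give their roles, settings, strand use, genome build or annotation, so coordinates are those of the deposited table. The authors also deposited a table of log2 fold changes with p-values and adjusted p-values, made by a test that the sources used here do not name; for the 28 of the 32 genes in it, a DESeq2 fit gave equal log2 fold changes.

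Counts were tested with edgeR 4.0.16 (R 4.3.3, limma 3.58.1): TMM scaling, filterByExpr (minimum count 10, minimum total 15), robust quasi-likelihood test, Benjamini-Hochberg adjustment over 13390 genes at 0.05. SE was taken as |log2 fold change| divided by the root of F. CPM uses TMM-scaled library sizes, and RPKM divides CPM by the deposited gene length per 1000 bases. A chromosome's median needed at least 50 tested genes. The procedure was tested on simulated data. The alternatives comprised 13 fits: other scaling, filters, DESeq2 1.42.0, limma-voom, a replicate block and each library left out. The 32 genes and the lists were chosen with earlier results of these data known. Named were all 32, KLF6, and per further list up to 2 called genes per direction with the largest change, plus those not called where 5 or fewer, and the extremes of the mitosis list. SKP2, TFDP1, TFDP2, DNA2 and E2F6 were named besides, after their values were seen. Sequences were not used here.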

Additional observations from a re-analysis of the deposited data

How the results depend on the processing

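Over the 13 alternative fits, 30 of the 32 genes kept their call, the exceptions being POLA1 and RFC3, and 0 of the 32 fell in any of them. The number that rose was 28 to 30 of the 32, and with a library left out 28 to 29. The count of other pathway genes that rose, 52, was 49 to 53 over the 13 fits. The count of other pathway genes that fell, 9, was 5 by DESeq2 and 5 to 9 with a library left out. The median log2 fold change of the 32 genes, 0.80, was 0.75 with scaling by library size only, 0.73 with each chromosome's median taken off, 0.76 with the median within 5 Mb taken off (chosen after seeing the data), and 0.74 to 0.82 with a library left out. Scaling by library size moved the median of all genes by -0.05. Summing rows of a symbol changed nothing, since each of the 32 symbols stands on 1 row. Pairing by the shared replicate numbers was not evident. Deviations of same-numbered libraries correlated at -0.05, 0.08 and -0.02, and not every library correlated best with its own number. With 3 libraries per genotype these values cannot decide whether libraries were paired. With the replicate block 29 of the 32 genes rose, 51 other pathway genes rose and 7 fell. The cause of these shifts was not tested. The 5 genes with the fewest counts (GINS4, CCNE2, GINS3, E2F2 and CCNE1) also had the 5 largest SEs, in another order.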

Other observations

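Mitosis genes on chromosomes with low medians also lay above those medians. CDK1, the kinase that drives mitosis, lies on chromosome 28, where the median was -0.57 on the log2 scale. It rose by 0.73 ± 0.08, higher than 92.7% of the other tested genes of that chromosome. CDC20 and NUF2, on chromosome 3 with a median of -0.39, rose by 0.62 and 0.42. CCNB1, on chromosome 20, which had the highest median at 0.48, rose by 1.55. Of 24 mitosis genes on a chromosome with a median, 24 lay above it, and of the 74 other pathway genes 65 did. Among all tested genes on such chromosomes, 6656 of 13326 did. The genes named here were chosen after their values were seen.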
